A study of Mus musculus with 12 samples.

Results

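The CD40 and BAFF receptor family was followed as 8 genes in activated mouse B cells. They were the rows of the deposited table whose gene name was Cd40, Tnfrsf13b, Tnfrsf13c, Tnfrsf17, Traf1, Traf2, Traf3 or Traf5, and all 8 were found among 29486 genes. Poly(A) RNA was sequenced from primary splenic B cells of C57BL/6Babr mice, 8 to 12 weeks old by the study's methods, purified with a B cell isolation kit. Each of 3 conditions had 4 libraries, and all cells received LPS, the bacterial endotoxin that activates B cells through Toll-like receptor 4, at 10 µg/ml. The LPS cells had LPS alone for 48 h. The LE cells had LPS for 48 h and then etoposide, a topoisomerase II poison that breaks DNA, at 20 µM for 4 h. The LEKU cells had LPS for 47 h, then 10 µM KU55933 for 1 h, and then the same etoposide treatment. KU55933 inhibits ATM, the kinase that signals DNA breaks, and 1 label spells it KU59933. No group had KU55933 without etoposide. The labels do not give whether LPS cells stayed in culture for the further 4 h, nor whether the 4 libraries of a condition came from separate mice or cultures. The libraries of a condition carried Illumina indexes that no other condition carried, so index and condition cannot be told apart.

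CD40 is the B-cell receptor for CD40 ligand on helper T cells and drives germinal centre responses and class switching. Tnfrsf13c encodes BAFF-R, the main survival receptor of mature B cells, which binds BAFF. Tnfrsf13b encodes TACI, which binds BAFF and APRIL and restrains B-cell numbers, and Tnfrsf17 encodes BCMA, the receptor of the same ligands on plasma cells. The TRAF proteins are the cytoplasmic adaptors of these receptors. In resting B cells, TRAF2 and TRAF3 bring the cIAP ubiquitin ligases to the kinase NIK, which is then degraded. When BAFF-R or CD40 is engaged, TRAF3 is degraded instead, NIK accumulates, and the precursor made from Nfkb2 is processed into an active NF-kB subunit. TRAF1 lacks the RING domain of its relatives and binds TRAF2, and TRAF5 overlaps in function with TRAF2 and also binds CD40.

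The deposited values carry no spread between replicates, which decides what can be read from them. Within a condition, any 2 libraries stood in the same ratio for every gene, to within 2.8e-14 on the log2 scale. Each column therefore holds the mean that the authors' DESeq2 model fitted to the condition, multiplied by the size factor of the library, the factor that corrects for depth. Column totals were 20739978 to 23935658 for LPS, 22523516 to 30575195 for LE and 20400994 to 25052093 for LEKU. Dividing by a size factor left 1 level for each gene and condition, called the level here, in normalized counts per library. No test across libraries could be made and no p-value is given. Ratios between conditions were taken as log2(level + 1) differences over 15592 genes, those that reached a normalized count of 10 in 4 or more libraries, and a ratio past 1.5-fold was counted as higher or lower. The 95% intervals come from exact Poisson and binomial limits on the summed fitted counts of 4 libraries. They cover counting error only, not the spread between cultures or the choice of scaling. In bulk RNA, fewer cells of a type and less RNA per cell cannot be told apart. The comparisons LE with LPS, LEKU with LPS and LEKU with LE share libraries, so their values are set side by side and are not independent of each other.

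Over all genes past the filter, 38.2% were past 1.5-fold between LE and LPS, 36.2% between LEKU and LPS and 18.8% between LEKU and LE. Of these, 57.2%, 56.6% and 38.3% were higher in the condition named first. The split followed the scaling and the filter. It was 67.8% and 71.9% for the comparisons with LPS when libraries were scaled by their totals. Under quantile normalization it was 46.1% for LE with LPS and 48.4% for LEKU with LE. For the comparisons with LPS it was 49.9% and 50.5% at a minimum of 50 counts, and 62.9% and 60.4% without a filter. Scaling by totals also moved the median log2 ratio of all genes from -0.02 to 0.11 for LE with LPS and from 0.02 to 0.19 for LEKU with LPS. All 6 B-cell markers passed the filter, and their summed level was 133634 in LPS, 73156 in LE and 82567 in LEKU. Markers of other cells were far lower. Cd3d, Cd3e and Cd3g did not exceed 3.6. Cd247 (CD3 zeta), the only T-cell marker past the filter, was at 8.204, 20.98 and 10.17 in LPS, LE and LEKU. The macrophage list, with 6 genes past the filter, summed to 417.7, 468.1 and 431.1, but its genes differed in direction. In LE against LPS, 3 of the 6 were higher (Csf1r, Cd14 and Cd68) and 1 lower (Itgam). Over all genes, 21.9% were higher and 16.4% lower. Csf1r and Cd14, below 10 in LPS, passed the filter only through the etoposide conditions. The dendritic-cell list summed to 2910, 1840 and 3355, mostly Flt3, with Zbtb46 at 103.1, 181.6 and 407, and Siglech and Itgax at most 5.171. Plasma-cell genes summed to 25031, 25880 and 16033, mostly Irf4, Xbp1 and Jchain, and differed in direction. Of the 5 past the filter, only Sdc1 (CD138) was higher than in LPS, at 138.4 in LPS, 1954 in LE and 636.4 in LEKU, and Prdm1 and Irf4 were lower in LEKU, at log2 ratios of -0.95 and -0.86.

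Between LE and LPS, 3 of the 7 family members past the filter were lower and none was higher. Traf5 was 2.91-fold lower, Tnfrsf13b (TACI) 2.04-fold lower and Tnfrsf13c (BAFF-R) 1.94-fold lower. Cd40 stood apart from Tnfrsf13b and Tnfrsf13c, with a level in LE that was 1.12 times that in LPS. The median log2 ratio of the 7 was -0.495, beside -0.02 over all genes. By direction, 16.4% of all genes were lower and 21.9% higher, and with 7 genes the count of 3 is close to the 38.2% past 1.5-fold in either direction.

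**Figure D1:**
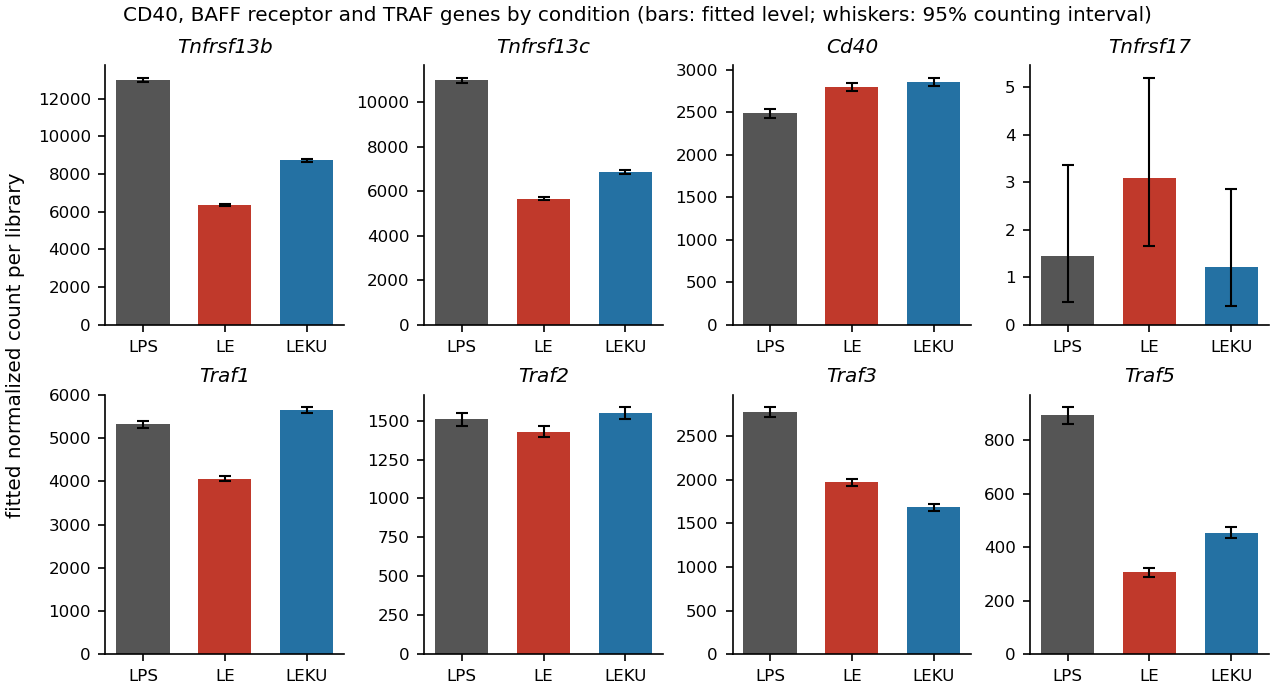
Fitted normalized count per library (vertical axis, a scale for each gene starting at 0) of the 8 family members in LPS, LE and LEKU, with bars for the fitted level of 4 libraries and whiskers for the 95% counting interval. Tnfrsf13b, Tnfrsf13c and Traf5 were highest in LPS, lowest in LE and between in LEKU, Traf3 was lowest in LEKU, and Tnfrsf17 stayed below 4 normalized counts in all 3 conditions.

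The receptors are taken first. Tnfrsf13b lies at chr11:61126755-61149372 on the plus strand (GRCm38, GENCODE M21, ENSMUSG00000010142). Its deposited values were 10617, 11778, 12252 and 11040 in the 4 LPS libraries, 6173, 6919, 8380 and 6708 in LE, and 7910, 8920, 9557 and 9714 in LEKU. The LPS libraries lay above all others, and LE and LEKU overlapped. Since such values differ within a condition by depth alone, here and for every member, whether they overlap says nothing of the spread between replicates. The levels were 12988 in LPS, 6353 in LE and 8719 in LEKU. The log2 ratio of LE to LPS was -1.03 (counting interval -1.05 to -1.01), lower than that of 94.4% of genes. LEKU lay between: 1.49-fold below LPS, at a log2 ratio of -0.575 just short of 1.5-fold, and 1.37-fold above LE. Over 6 scalings of the libraries, the ratio of LE to LPS ran from -1.03 to -0.76. That of LEKU to LPS ran from -0.575 to -0.217, and both values given above were the lowest.

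Tnfrsf13c is a compact gene of 2.63 kb at chr15:82221743-82224369 on the minus strand (ENSMUSG00000068105). Its deposited values were 8975, 9957, 10358 and 9333 in LPS, 5500, 6164, 7466 and 5976 in LE, and 6231, 7027, 7528 and 7652 in LEKU. As for Tnfrsf13b, every LPS library was above every other one, and LE and LEKU overlapped. The level was 10980 in LPS and 5660 in LE, a log2 ratio of -0.96 (-0.98 to -0.93). In LEKU it was 6868, 1.60-fold below LPS and 1.21-fold above LE. Over the 6 scalings the log2 ratio ran from -0.956 to -0.64 for LE with LPS. For LEKU with LPS it ran from -0.677 to -0.257. Tnfrsf13b and Tnfrsf13c had the most similar profiles of any 2 family members, with a distance of 0.126 between their centred log2 levels over the 3 conditions.

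Cd40 lies at chr2:165055627-165072948 on the plus strand (ENSMUSG00000017652). The deposited values were 2032, 2254, 2345 and 2113 in LPS, 2713, 3041, 3683 and 2948 in LE, and 2588, 2919, 3127 and 3178 in LEKU. The LPS libraries were below all others, but the levels differed less than these values, since size factors were 0.8174 to 0.9434 for LPS, 0.9717 to 1.319 for LE and 0.9073 to 1.114 for LEKU. The levels were 2486, 2792 and 2853 in LPS, LE and LEKU. The log2 ratio was 0.17 (0.13 to 0.21) for LE with LPS and 0.20 (0.16 to 0.24) for LEKU with LPS, neither past 1.5-fold. LEKU and LE differed by 0.03, with a counting interval of -0.005 to 0.068 that holds 0.

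Tnfrsf17 was at the edge of detection. Its deposited values were 1.187 to 1.37 in LPS, 2.992 to 4.062 in LE and 1.114 to 1.368 in LEKU, and it did not pass the filter. Summed over 4 libraries, the fitted counts were 5.108, 13.66 and 5.084. The LE and LPS levels, 3.079 and 1.452, had counting intervals of 1.67 to 5.20 and 0.479 to 3.36, which overlap, so no difference was detectable at this depth. BCMA is a plasma-cell receptor, and the plasma-cell genes given above did not share 1 direction.

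The TRAF adaptors follow, all 4 of which passed the filter. Traf5 lies at chr1:191997205-192092559 on the minus strand (ENSMUSG00000026637). Its deposited values were 730, 809.9, 842.5 and 759.2 in LPS, 297.3, 333.3, 403.6 and 323.1 in LE, and 412.6, 465.3, 498.5 and 506.7 in LEKU. The 3 conditions did not overlap in these depth-scaled values. The levels were 893.1, 306 and 454.8, with a log2 ratio of -1.54 (-1.64 to -1.45) for LE with LPS. Only 1.35% of genes past the filter had a lower ratio in that comparison, which makes Traf5 the most extreme of the 7 members. In LEKU it was 1.96-fold below LPS and 1.49-fold above LE, just short of 1.5-fold. Traf5 shares 205 exonic bases with the antisense gene Gm26879, whose level was at most 1.746, and 65 with Mir3473c, at most 0.1707. The counting setting for strand is not given in the sources used here. No other family member shares exonic bases with another annotated gene.

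Traf3 was the only one of the 7 members with its lowest level in LEKU. It lies at chr12:111166370-111267153 on the plus strand (ENSMUSG00000021277). The deposited values were 2273, 2522, 2624 and 2364 in LPS, 1917, 2149, 2603 and 2083 in LE, and 1528, 1724, 1847 and 1877 in LEKU. LPS and LE overlapped in these depth-scaled values, and LEKU lay below both. The levels were 2781, 1973 and 1685. The log2 ratio to LPS was -0.495 (-0.54 to -0.45) in LE and -0.72 (-0.77 to -0.68) in LEKU, so that Traf3 passed 1.5-fold only in the comparison of LEKU with LPS. LEKU was 1.17-fold below LE.

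Traf1 and Traf2 stayed within 1.5-fold in all 3 comparisons. Traf1, at chr2:34941750-34961772 on the minus strand (ENSMUSG00000026875), had deposited values of 4348, 4824, 5018 and 4522 in LPS, 3950, 4427, 5362 and 4292 in LE, and 5127, 5782, 6194 and 6296 in LEKU. LE overlapped both other conditions. The levels were 5319, 4065 and 5652. LE was 1.31-fold below LPS (log2 ratio -0.39, -0.42 to -0.36), and LEKU was 1.06-fold above LPS and 1.39-fold above LE. Over the 6 scalings the log2 ratio of Traf1 ran from -0.388 to -0.176 for LE with LPS. For LEKU with LPS it ran from 0.087 to 0.406. Traf2, at chr2:25517982-25546940 on the minus strand (ENSMUSG00000026942), had levels of 1508, 1427 and 1549. Its log2 ratio for LE with LPS was -0.08, and the sign turned with the scaling, up to 0.05 with library totals.

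**Figure D2:**
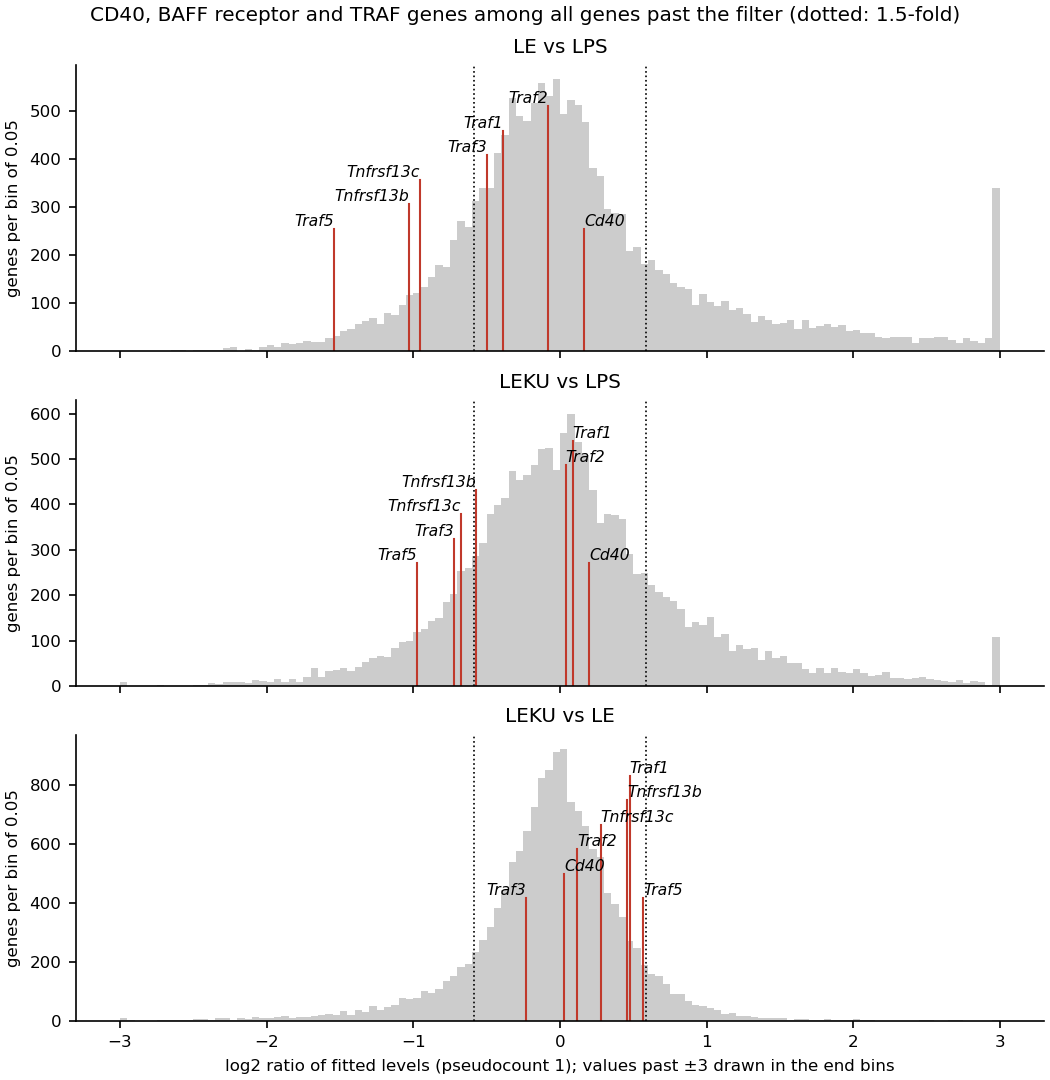
Histograms of the log2 ratio of fitted levels (horizontal axis, pseudocount 1) over the 15592 genes past the filter, in bins of 0.05, for each comparison, with red lines for the 7 family members past the filter and dotted lines at 1.5-fold. Tnfrsf13b, Tnfrsf13c and Traf5 lie left of the dotted line for LE with LPS, Tnfrsf13c, Traf3 and Traf5 for LEKU with LPS, and no member is past either line for LEKU with LE.

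With the ATM inhibitor before etoposide, 3 of the 7 members were lower than in LPS and none was higher, where 15.7% of all genes were lower and 20.5% higher. They were Tnfrsf13c, Traf3 and Traf5, and Tnfrsf13b was just inside the threshold. The median log2 ratio of the 7 was -0.575, beside 0.02 over all genes. Scaled by library totals or by quantile normalization, only Traf5 was past 1.5-fold, at -0.80 and -0.99. Compared directly, none of the 7 was past 1.5-fold between LEKU and LE, where 7.22% of all genes were higher and 11.6% lower. The median log2 ratio of the 7 was 0.279, beside -0.04 over all genes. Traf5 at 0.57 (0.47 to 0.67), Traf1 at 0.475 (0.447 to 0.504) and Tnfrsf13b at 0.457 (0.434 to 0.479) had higher ratios than 92.5%, 89.6% and 88.9% of genes. Whether these members differ between LEKU and LE beyond the spread of cultures could not be tested.

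**Figure D3:**
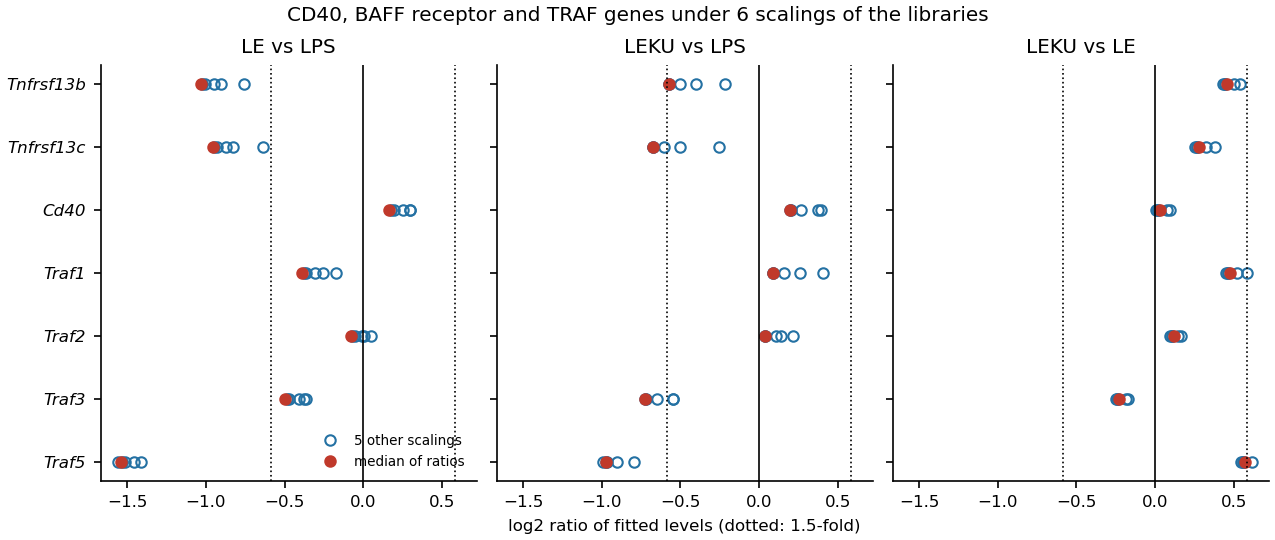
Log2 ratio of fitted levels (horizontal axis) of the 7 members past the filter under 6 scalings of the libraries, with filled points for the median of ratios, open points for the 5 other scalings and dotted lines at 1.5-fold. For LE with LPS, Tnfrsf13b, Tnfrsf13c and Traf5 were past 1.5-fold under all 6, and Traf2 lay from -0.08 to 0.05, on both sides of 0.

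Promoter sequence was examined from 250 bases before to 50 after the RefSeq start of each gene (GRCm38.p6), a window given for all members but Cd40. The consensus site for NF-kB, searched by its kB consensus on both strands, was present in 4.51% of 32851 promoters and in 1 member, Traf3, the adaptor that holds the NF-kB inducing kinase in check. It ended at the base before the start of Traf3, and is shown here as the match nearest to a member's start. The 30 bases shown, with the site in capitals, are chr12:111166350-111166379 on the plus strand.

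Traf3: ggcggcccgcGGGGATTTCCagcgcgcgag

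The letters TATAAA, searched on the gene's own strand, were present in 8.32% of promoters and in 1 member, Tnfrsf17, the receptor that was barely detected. The match lay 114 to 109 bases before its start and did not overlap another of these motifs. The 30 bases shown, with the letters in capitals, are chr16:11313683-11313712 on the plus strand.

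Tnfrsf17: gtaactttcctcTATAAAtaggtggtttct

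The p53 half-site consensus, searched on both strands, was present in 8.36% of promoters and in none of the 7 windows, which says nothing of sites elsewhere. The Traf3 window was 84.0% G and C, beside a median of 52.7% over all promoters. The other windows lay between 48.7% for Traf1 and 64.0% for Traf2. The NF-kB match in the Traf3 window is a match of letters, and no binding was measured.

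To compare genes with each other, levels were divided by exonic length, giving normalized counts per kb. In LPS the order was Tnfrsf13c at 5361, Tnfrsf13b at 4580, Cd40 at 729.8, Traf1 at 603.2, Traf3 at 378.4, Traf2 at 295.7, Traf5 at 195.6 and Tnfrsf17 at 1.782. BAFF-R and TACI transcripts were thus the most abundant of the family and those of BCMA the least, with TACI 6.28-fold above Cd40. In LE the 4 most abundant kept their order, and Tnfrsf13b was 2.73-fold above Cd40. Traf2 and Traf3 exchanged places, at 279.7 (272.9 to 286.7) and 268.5 (262.9 to 274.2), with overlapping counting intervals. In LEKU, Traf2 at 303.8 was 1.33-fold above Traf3 at 229.2, and their intervals were apart. All other neighbours in the 3 orders had separate counting intervals. These do not cover error in the length, which was the union of all annotated exons of a gene. The length of the transcripts present was not measured, so the order of close neighbours is uncertain.

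Ratios between members within a library do not depend on the factor by which a library is scaled, though quantile normalization, which applies no single factor, moves them. Cd40 per Tnfrsf13b was 0.159 in LPS, 0.366 in LE and 0.272 in LEKU, 2.30-fold and 1.71-fold above LPS. Cd40 per Tnfrsf13c was 0.136, 0.297 and 0.250, 2.18-fold and 1.83-fold above LPS. On the log2 scale these differences were 1.2 and 0.77 for Tnfrsf13b and 1.12 and 0.88 for Tnfrsf13c, and under quantile normalization 1.05 and 0.61, and 0.94 and 0.65. Tnfrsf13b per Tnfrsf13c, by contrast, was 0.854, 0.811 and 0.917, the narrowest range of the 10 ratios computed. Cd40 accordingly made up 6.84% of the summed receptor level per kb in LPS, 14.1% in LE and 11.5% in LEKU, while the sum was 10672, 5827 and 7267.

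Among the adaptors, Traf5 had a smaller part in LE and LEKU than in LPS. Traf2 per Traf5, adaptors that overlap in function, was 1.51 in LPS, 4.17 in LE and 3.05 in LEKU. Traf1 per Traf5 was 3.08, 6.88 and 6.43, with a log2 difference of -0.10 between LEKU and LE that was 0.01 under quantile normalization. The Traf5 share of the summed adaptor level per kb was 13.3%, 6.23% and 7.82%. Traf2 per Traf3, the pair that recruits the ligases to NIK, was 0.782 in LPS, 1.04 in LE and 1.33 in LEKU, and Traf1 per Traf3 was 1.59, 1.72 and 2.80. In LEKU, Traf1 made up 50.3% and Traf3 18.0% of the adaptor sum, beside 41.0% and 25.7% in LPS. Receptor to adaptor, Cd40 per Traf3 was 1.93 in LPS, 3.05 in LE and 3.65 in LEKU.

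**Figure D4:**
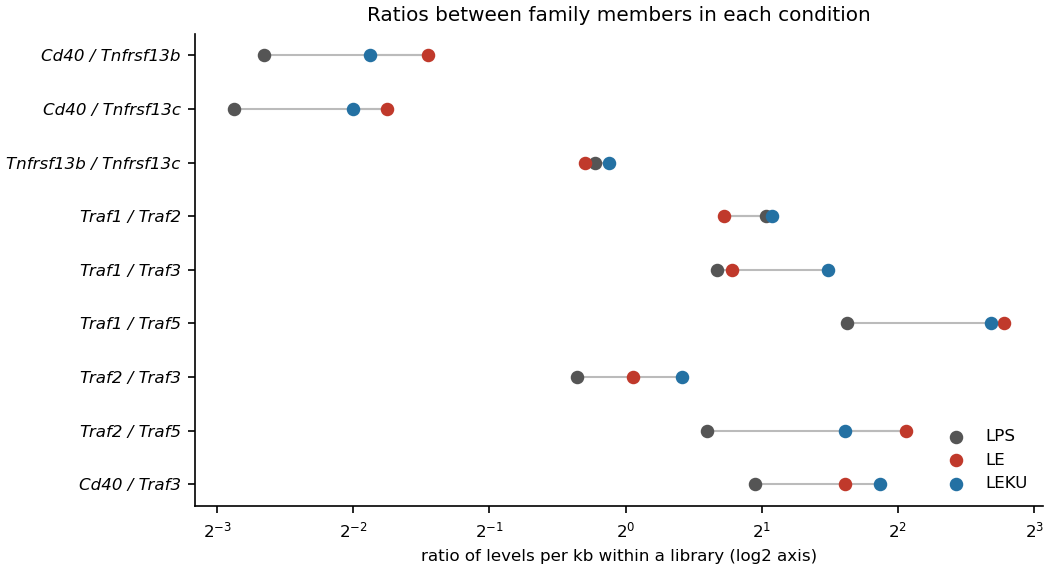
Ratio of levels per kb between 2 family members within a library (horizontal axis, log2 scale), with a point for each condition. Cd40 per Tnfrsf13b and Cd40 per Tnfrsf13c lie furthest right in LE, Tnfrsf13b per Tnfrsf13c spans 0.811 to 0.917, and Traf1 per Traf3, Traf2 per Traf3 and Cd40 per Traf3 lie furthest right in LEKU.

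B-cell identity genes also differed between LE and LPS. Of 6 markers, 5 were lower in LE than in LPS, where 16.4% of all genes were lower, and the median log2 ratio of the 6 was -0.67. Cd22 was at -2.49 and Pax5, the B-cell commitment factor, at -2.30, while Cd79a, Cd79b and Ms4a1 lay between -0.68 and -0.51. Relative to each marker in the same library, Cd40, Traf1, Traf2 and Traf3 were above all 6 in LE against LPS. Tnfrsf13b, Tnfrsf13c and Traf5 were below 4 of the 6 and above Cd22 and Pax5, with medians of -0.36, -0.28 and -0.87. Between LEKU and LPS, 3 of the 6 markers were lower, where 15.7% of all genes were lower, and the median of the 6 was -0.85. In that comparison Tnfrsf13b, Tnfrsf13c and Traf5 were each below 3 markers and above 3. The part of the marker differences in the members' values was not tested.

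For each member, the 2 genes with the most similar profile were sought among 9889 named genes with a mean level of at least 100, by Euclidean distance between centred log2 levels. With 3 condition means a profile is easily matched, and the number of genes within a distance of 0.1 shows how common it is. Only 10 genes came that close to Traf5, nearest Ighj3, a heavy-chain joining segment, and Il16. Tnfrsf13b had 70, nearest Arrb2 (beta-arrestin) and the interferon regulatory factor gene Irf5, and Tnfrsf13c had 105, nearest Rhobtb2 and Faf1. Traf1 had 202, nearest Praf2 and Pan2, and Traf3 had 234, nearest the mitotic checkpoint kinase gene Bub1 and the co-chaperone gene Stip1. Cd40, nearest Gpn2 and the ribosomal protein gene Rps20, had 499, and Traf2, nearest Ufd1l and Ubxn8, had 516, as profiles near 0 are common.

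The other genes of the pathway were taken from 8 lists of 74 genes, of which 71 passed the filter. Between LE and LPS, 10 of the 71 were higher and 9 lower, 14.1% and 12.7%, both below the shares of all genes, with a median of -0.03. Between LEKU and LPS, 15 were higher and 15 lower, 21.1% each beside 20.5% and 15.7% of all genes, with a median of 0.06. Between LEKU and LE, 6 were higher and 9 lower, 8.45% and 12.7% beside 7.22% and 11.6%, with a median of 0. The split followed the scaling here too: by library totals it was 16 and 9 for LE with LPS and 19 and 10 for LEKU with LPS, and under quantile normalization 18 and 10 for LEKU with LPS and 7 and 7 for LEKU with LE. The pathway as a whole thus had genes past 1.5-fold in both directions.

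Of the ligands, only Tnfsf13b, which encodes BAFF, passed the filter. Its level was 2.91 in LPS, 18.57 in LE and 10.98 in LEKU, a log2 ratio of 2.32 for LE with LPS at low counts. It passed the filter only through the etoposide conditions, where it was higher. Cd40lg and Tnfsf13 (APRIL) stayed below 1 in every condition. Among the other TNF receptors that use TRAFs, 4 of 8 past the filter were higher in LE than in LPS and none lower, with a median of 0.81, where 21.9% of all genes were higher and 16.4% lower. They were Tnfrsf18 (GITR) at 2.14, Tnfrsf9 at 1.81, Tnfrsf4 (OX40) at 1.17 and Tnfrsf1b (TNF receptor 2) at 1.10, the reverse direction to Tnfrsf13b and Tnfrsf13c. Only Tnfrsf1b among them was abundant, at 1335 in LPS and 2856 in LE. Tnfrsf9, at 4.63 in LPS, 18.76 in LE and 10.2 in LEKU, passed the filter only through the etoposide conditions, where it was higher. Between LEKU and LE, 3 of the 8 were lower, beside 11.6% of all genes, Tnfrsf8 (CD30) by the most at -1.37.

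Of the 3 other TRAF genes, Traf4 was higher in both etoposide conditions, at 1774 in LPS, 3356 in LE and 3529 in LEKU, while Traf6 and Traf7 had log2 ratios of 0.27 and -0.32 for LE with LPS. Among 8 ubiquitin ligases and deubiquitinases of the TRAF complex, only Cyld, a deubiquitinase that restrains NF-kB signalling, was past 1.5-fold in LE, at 7379 beside 3694 in LPS and 5336 in LEKU. That was 12.5% of the list, beside 38.2% of all genes past 1.5-fold. Birc3 (cIAP2), which TRAF2 binds, was at -0.54 and Birc2 (cIAP1) at 0.03. Of 10 regulators that bind TRAFs, Ikbke, which encodes the kinase IKK-epsilon, was higher at 2.14 and Traf3ip3, which encodes a TRAF3-interacting protein, lower at -1.04. Traf3ip3 was also lower in LEKU than in LPS, at -0.98, with Traip at -0.79 and Tank at -0.74. There, 3 of the 10 were lower and 1, Ikbke, higher, 30% and 10% beside 15.7% and 20.5% of all genes.

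**Figure D5:**
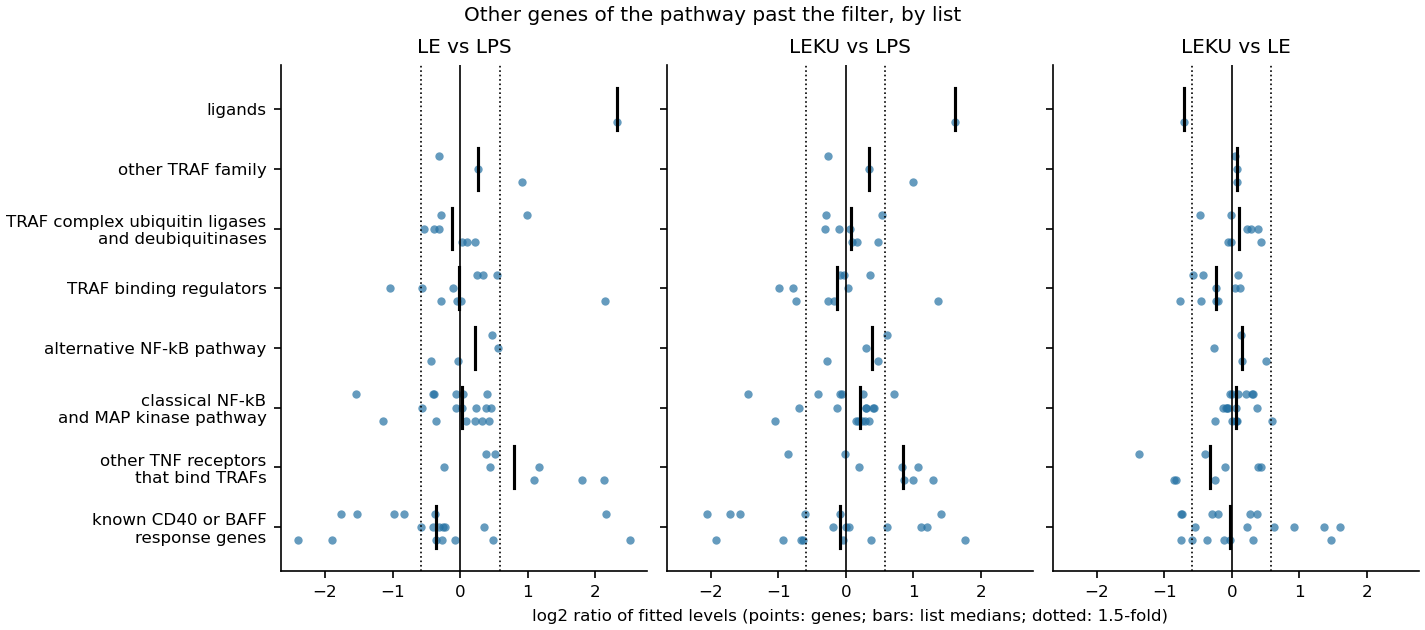
Log2 ratio of fitted levels (horizontal axis) of the 71 other pathway genes past the filter, by list and comparison, with a point for each gene, a black bar for the list median and dotted lines at 1.5-fold. For LE with LPS, the list of other TNF receptors had a median of 0.81 and the list of known CD40 or BAFF response genes a median of -0.36, with genes past 1.5-fold on both sides.

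Of 4 genes of the alternative NF-kB pathway, which BAFF-R and CD40 drive through NIK, none was past 1.5-fold between LE and LPS. Over all genes, 38.2% were. Map3k14, which encodes NIK, was at 1020 in LPS, 758.1 in LE and 842.7 in LEKU, Chuk (IKK-alpha) was at a log2 ratio of 0.56 for LE with LPS, and Nfkb2 was at 6418, 8894 and 9785, past 1.5-fold only in LEKU. In the classical NF-kB and MAP kinase list, 2 of 18 genes (11.1%) were lower in LE and none higher, beside 16.4% and 21.9% of all genes. The lower ones were Nfkb1, with levels of 12732, 5788 and 6122, and Map3k5, which encodes the stress kinase ASK1, at -1.54. Rel, an NF-kB subunit gene, was higher in LEKU than in LPS at 0.71. Rnf31, the catalytic subunit of the linear ubiquitin ligase, was the only gene of the list past 1.5-fold between LEKU and LE. Its log2 ratio of 0.59 was only just past that threshold, which is 0.58 on the log2 scale.

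Of 19 genes known to respond to CD40 or BAFF, 2 were higher and 6 lower in LE than in LPS, 10.5% and 31.6% beside 21.9% and 16.4% of all genes, with a median of -0.36. The higher ones were Cd80, a costimulatory ligand, at 2.52, and Icam1, an adhesion molecule, at 2.16. The lower ones included Fcer2a (CD23) at -1.90 and Bcl2, the survival factor, at -1.76. Between LEKU and LE, 5 were higher and 4 lower, 26.3% and 21.1% beside 7.22% and 11.6% of all genes. Cd86, which shares its receptors with Cd80, was higher at 1.60 and the homing receptor gene Ccr7 at 1.37, while Cd80 at -0.76, Icam1 at -0.75 and Slamf1 at -0.74 were lower. Fcer2a and Bcl2 did not have the order of conditions of Tnfrsf13b, Tnfrsf13c and Traf5, with LEKU levels of 2524 and 1428 beside 2568 and 1750 in LE.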

How the data were processed

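Poly(A) RNA libraries (TruSeq Stranded mRNA, single-end HiSeq2000) were made from splenic B cells, 12 in all and 4 in each condition. The authors trimmed reads (Trim Galore, cutadapt 1.2.1), mapped them to GRCm38 with TopHat2 2.0.12, counted them with HTSeq on the Ensembl annotation and fitted DESeq2 1.6.3. The deposited table holds a signal for each gene and library, the fitted condition mean times the library size factor. Other deposited tables hold the authors' comparisons (a mean, fold changes, errors, statistics and p-values). Only the mean over the 12 libraries was used. It differed from the mean of the 3 levels by 0.262% to 0.724% for the 7 members past the filter and by -5.47% for Tnfrsf17.

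Size factors were set by the median of ratios to the geometric mean, with pandas 2.3.3 and numpy 2.4.6 under Python 3.11.15. Intervals came from scipy 1.17.1 and plots from matplotlib 3.10.9. The factors differed by at most 0.455% from factors recovered from the authors' mean. Log2 ratios used a pseudocount of 1, which understates ratios of low genes, and counting intervals none. Scripts were tested on simulated data. The planned limma test needs values of each replicate and was not run. Alternatives were other scalings, pseudocounts, filters and folds. Genes named were the 8 members, the ligands, up to 3 highest and 3 lowest of each list in each comparison past the filter, and the 2 most similar genes of each member. Gene models were from GENCODE M21 and promoters from RefSeq. The members and lists were chosen with earlier results of these data known. Some genes of the lists are counted but not reported by name here.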

Additional observations from a re-analysis of the deposited data

How the results depend on the processing

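No paired analysis was possible because the deposited columns hold fitted condition means, without values of each replicate. For the same reason a fit with the replicate number as a block and the leaving out of each replicate were not run. There were 11 alternative settings, with 2 of them chosen after seeing the data (median of ratios over genes with a mean of at least 100, and size factors from the authors' mean). Over these, 81 counts stayed within 1.5 times their main value while 18 did not. No member past 1.5-fold turned its direction under the 5 other scalings. A change of pseudocount, filter or fold cannot turn a direction, so those settings say nothing of it. Members past 1.5-fold between LEKU and LPS numbered 3, but 1 under library totals, 1 under quantile normalization and 0 at 2-fold. Between LEKU and LE they numbered 0, but 1 under library totals (Traf5), 1 without a filter (Tnfrsf17) and 4 at 1.2-fold. Between LE and LPS they numbered 3, and 5 at 1.2-fold. In that order of comparisons (LE with LPS, LEKU with LPS, LEKU with LE), all genes past the fold numbered 5963, 5640 and 2937 at 1.5-fold, 10332, 10277 and 7716 at 1.2-fold, and 3153, 2660 and 992 at 2-fold. Pathway genes numbered 19, 30 and 15 at 1.5-fold and 52, 49 and 35 at 1.2-fold, and at 2-fold 14 for LEKU with LPS and 4 for LEKU with LE. These shifts with the fold follow from its construction, and the cause of the others was not tested. Counting intervals held 0 for Tnfrsf17 in all 3 comparisons, for Cd40 between LEKU and LE and for Traf2 between LEKU and LPS, and the spread between cultures was not used here for any member.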
